A study of Mus musculus with 10 samples.

Results

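The 9 genes Cldn1, Cldn2, Cldn3, Cldn4, Cldn6, Cldn7, Cldn8, Ocln and Tjp1 encode the claudins and associated proteins of epithelial tight junctions. They were followed across developing mouse gallbladder and cystic duct, as 9 of the 18193 genes that the array reads by a probe set of their own. Every probe set, a group of short oligonucleotides on the array, that the platform annotation gives to exactly 1 of these genes was taken. This gave 17 probe sets of the 34945 that name a single gene: 4 for Cldn1, 4 for Cldn3, a pair each for Cldn2 and Ocln, and 1 for each of Cldn4, Cldn6, Cldn7, Cldn8 and Tjp1. Of the 17, 15 were bright enough to be tested; the 2 left out were dim Cldn1 probe sets at 2.82 to 3.80 on the log2 scale. The brightest probe set of a gene is called its leading probe set.

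The samples were Affymetrix arrays of total RNA from mouse embryos at 15 days post coitum (dpc), in 5 groups of 2 biological replicates. From ICR, an outbred stock, came gallbladders of wild type and Sox17+/- embryos and cystic ducts of wild type embryos. Wild type and Sox17+/- gallbladder also came from B6, an inbred strain. Sox17 is a transcription factor gene that acts in the endoderm, and Sox17+/- embryos carry 1 altered copy; the labels name no allele, litter or sex and do not say whether embryos were pooled. Cystic duct came from ICR wild type alone. Since the labels tie no sample to an animal, p values measure only the spread between these samples. Each sample is bulk tissue, so fewer cells of a type and less RNA per cell cannot be told apart.

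Tight junctions seal the space between neighbouring epithelial cells and decide which ions and how much water pass between them. Claudins span the membrane and form the sealing strands; some, such as Cldn2, form channels for cations and water, and others tighten the barrier. Occludin (Ocln) lies in the same strands, and ZO-1 (Tjp1) anchors them to the actin cytoskeleton. In the gallbladder and bile ducts this seal keeps bile salts in the lumen while salt and water are taken up and bile is concentrated.

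Values below are log2 signals after quantile normalization, so a difference of 1 is a doubling. A probe set brighter than another does not show a more abundant transcript, so levels are compared between samples only. Medians of the deposited values ran from 5.51 to 6.07 over the samples. The 2 cystic duct samples stood further apart from each other than any other pair of replicates: their Pearson r over 24461 probe sets was 0.889 and their median absolute difference 0.57, against r of 0.960 to 0.995 and at most 0.21 in the gallbladder pairs. Sox17, read by its probe set 1421657_a_at, was at 9.52 and 9.24 in ICR wild type gallbladder and at 7.65 and 7.90 in ICR Sox17+/- gallbladder. In B6 it was at 9.29 and 9.04 in wild type and at 8.03 and 7.91 in Sox17+/-. The Sox17+/- samples were therefore below the wild type samples without overlap, as their labels have it. Epithelial markers were present in every sample: the log2 of the summed signal of the 10 markers, among them Epcam, Cdh1 and Krt19, ran from 13.45 to 14.10 over all samples, and none of the 10 was too dim to be tested.

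Promoter sequences were available for 8 of the 9 genes, all but Cldn8, as 10 windows of 250 bases before a transcription start (RefSeq, GRCm38.p6). They were searched on both strands for the E-box CACCTG or CAGGTG, the form bound by Snail-type repressors of claudin genes, and for the Sox core ACAAT or ATTGT; each pair is 1 motif read on either strand, and the motifs do not overlap. The promoters of 3 genes on which the results below turn are shown 5′ to 3′ on the strand of the gene, with E-box matches in capitals: Cldn1, which differed most between cystic duct and gallbladder, Cldn4, which differed most between the strains, and Cldn7 at its downstream start, which lay lower in Sox17+/- gallbladder.
Cldn1, chr16:26371840-26372089, minus strand: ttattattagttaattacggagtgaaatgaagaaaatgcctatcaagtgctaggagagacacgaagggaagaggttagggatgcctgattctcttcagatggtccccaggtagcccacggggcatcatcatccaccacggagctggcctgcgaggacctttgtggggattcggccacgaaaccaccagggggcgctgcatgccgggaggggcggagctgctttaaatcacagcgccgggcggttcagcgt
Cldn4, chr5:134946935-134947184, minus strand: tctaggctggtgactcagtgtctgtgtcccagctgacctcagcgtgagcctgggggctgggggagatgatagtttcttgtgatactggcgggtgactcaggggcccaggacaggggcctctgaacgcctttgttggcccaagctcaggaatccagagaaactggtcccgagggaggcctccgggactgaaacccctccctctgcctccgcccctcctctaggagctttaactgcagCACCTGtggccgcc
Cldn7, chr11:69965171-69965420, plus strand: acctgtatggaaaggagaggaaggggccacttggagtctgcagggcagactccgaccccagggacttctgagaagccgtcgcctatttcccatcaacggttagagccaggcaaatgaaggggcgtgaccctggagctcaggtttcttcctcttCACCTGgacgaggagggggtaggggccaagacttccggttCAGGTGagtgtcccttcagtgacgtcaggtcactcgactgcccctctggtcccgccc
An E-box was present in 4 of the 10 windows, those of Cldn4, Cldn6, Ocln and the downstream start of Cldn7, and in 17.2% of all 32851 promoter windows of the same length. In Cldn4 the match begins 14 bases before the start, and in Cldn7 the matches begin 97 and 57 bases before it. The Sox core was in 0 of the 10 windows and in 27.7% of all windows. The 2 Ocln windows overlap each other and Cldn7 also has 2 windows, so the 10 are not separate promoters. Their GC content ran from 51.2% to 69.2%, against a median of 52.4% over all windows, and the shares were not matched for it. These are matches of letters and do not show binding.

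Sox17+/- gallbladder was compared with wild type gallbladder to ask how loss of 1 Sox17 copy relates to tight junction genes. Cldn8, a claudin that limits cation leak and is best known from distal kidney tubule and colon, showed the widest difference of the 9 genes, and Cldn7, a claudin of the lateral membrane that binds EpCAM, the next clearest one in the other direction. The remaining leading probe sets differed by 0.49 or less in either direction. No member passed the adjusted threshold of 0.05 in limma over both strains (0 of 15), where 0.00818% of all probe sets tested did so, 2 in number. At an unadjusted p under 0.05 there were 2 of 15, Cldn8 and Cldn7, against 3.16% of all probe sets.

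Cldn8 was at 7.08 and 6.62 in ICR wild type gallbladder and at 8.53 and 8.77 in ICR Sox17+/- gallbladder. In B6 it was at 7.94 and 7.15 in wild type and at 9.36 and 8.63 in Sox17+/-. All 4 Sox17+/- samples thus lay above all 4 wild type gallbladder samples, a separation that 1.52% of all probe sets tested also had. The difference over both strains was 1.63 (SE 0.23, 95% interval 1.09 to 2.16), a 3.09-fold higher signal, with an adjusted p of 0.159 (limma). By size this was the 11th highest difference of 24461 probe sets and by p the 17th smallest. With arrays weighted by their quality the adjusted p was 0.049, and without ICR wild type gallbladder replicate 2 the difference was 1.51 with an adjusted p of 0.0435, so the call rests on these choices.

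The Cldn8 difference was 1.80 in ICR (SE 0.33, adjusted p = 0.553, limma) and 1.45 in B6 (SE 0.33, adjusted p = 1). In B6 the 95% interval was 0.69 to 2.21 and in ICR 1.04 to 2.56. The genotype effect in B6 minus that in ICR was -0.35 (95% interval -1.43 to 0.73). No strain difference was detected, and these samples do not exclude one anywhere in that interval. In order of their means, Cldn8 was at 6.85 ± 0.32 (SD, n = 2) in ICR wild type gallbladder, 7.54 ± 0.56 in B6 wild type gallbladder, 8.55 ± 0.04 in cystic duct, 8.65 ± 0.16 in ICR Sox17+/- gallbladder and 9.0 ± 0.52 in B6 Sox17+/- gallbladder. Each of the highest 3 groups overlapped with its neighbour in this order, and the wild type gallbladder groups overlapped neither with these nor with each other.

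**Figure D1:**
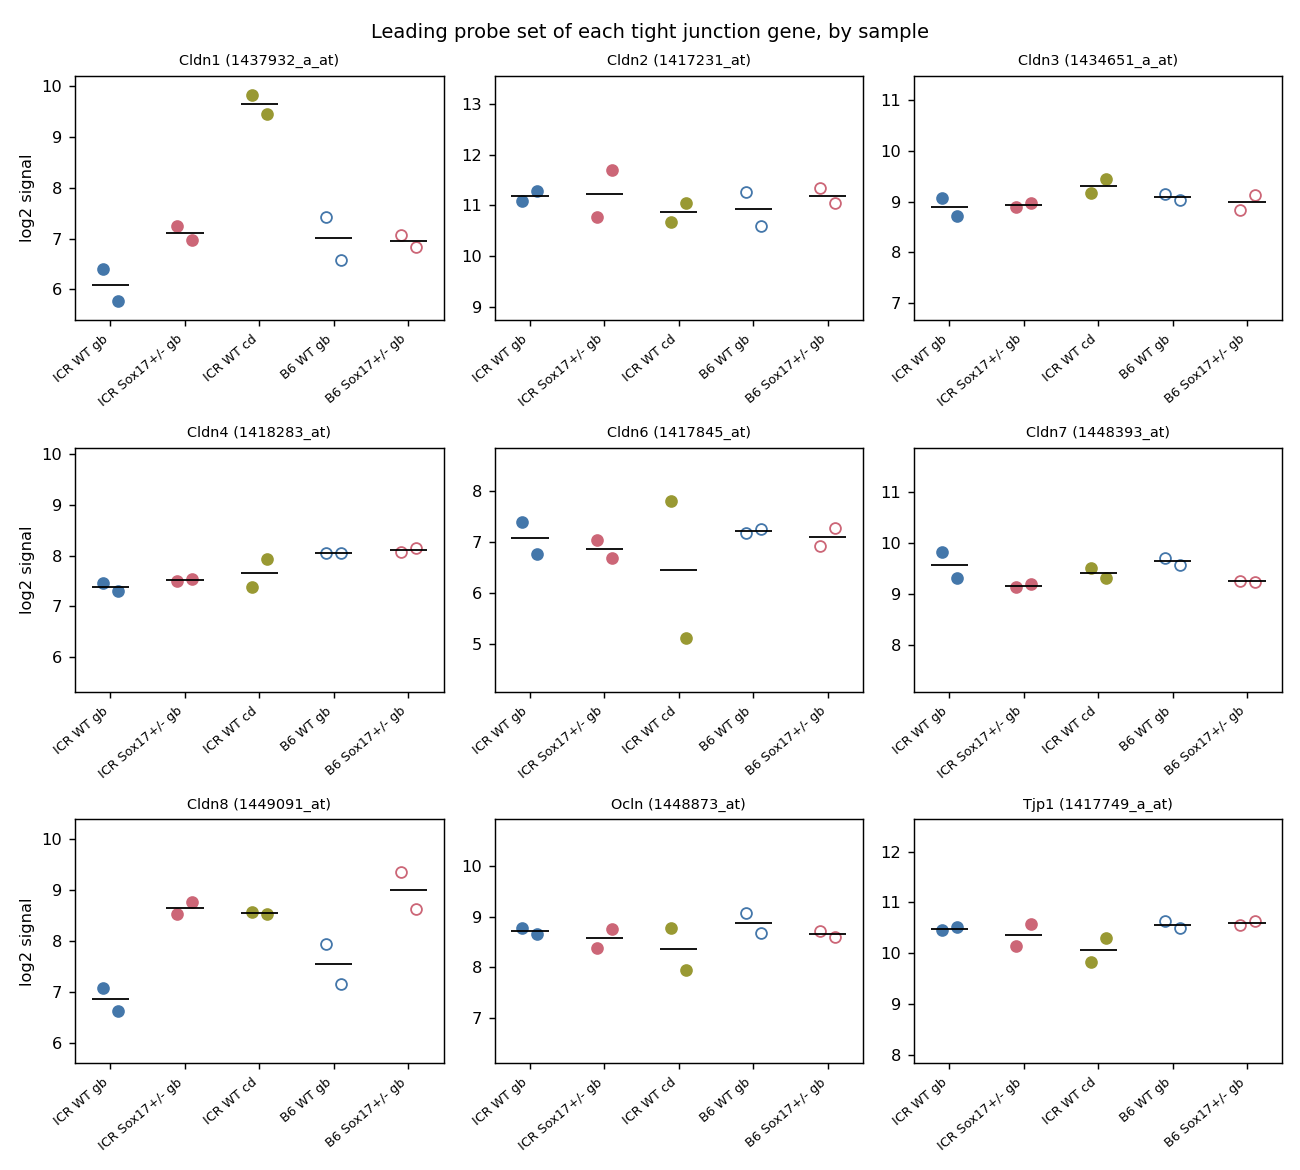
Log2 signal of the leading probe set of each of the 9 tight junction genes in every sample; points are samples, horizontal bars are group means, filled points are ICR, open points are B6, gb is gallbladder, cd is cystic duct and WT is wild type, and every panel has an axis of its own range. Cldn8 lies higher in both Sox17+/- groups and in cystic duct than in either wild type gallbladder group, and Cldn1 is highest in cystic duct at 9.83 and 9.45.

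Cldn7 was at 9.82 and 9.31 in ICR wild type gallbladder and at 9.13 and 9.18 in ICR Sox17+/- gallbladder. In B6 it was at 9.70 and 9.57 in wild type and at 9.26 and 9.24 in Sox17+/-. All 4 Sox17+/- samples lay below all 4 wild type samples, which 2.85% of all probe sets also did; 6.27% of them had both Sox17+/- samples below both wild type samples within each strain. The difference was -0.40 (SE 0.13, 95% interval -0.70 to -0.10, unadjusted p = 0.0151 and adjusted p = 0.9999, limma), and it was -0.41 in ICR and -0.39 in B6. It did not pass in any of the alternatives tried.

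Cldn4, a barrier claudin, lay higher in both Sox17+/- samples than in both wild type samples within each strain, which was also true of 3.97% of all probe sets, but the gaps were small. It was at 7.45 and 7.29 against 7.50 and 7.53 in ICR, and at 8.04 and 8.05 against 8.07 and 8.15 in B6. The difference was 0.11 (SE 0.15, 95% interval -0.24 to 0.45).

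Cldn1, a barrier claudin that is made in bile duct epithelium and also in hepatocytes, was at 6.41 and 5.78 in ICR wild type gallbladder and at 7.25 and 6.97 in ICR Sox17+/- gallbladder. In B6 it was at 7.43 and 6.58 in wild type and at 7.07 and 6.84 in Sox17+/-. The groups were apart in ICR and overlapped in B6. The difference in ICR was 1.02 (SE 0.34, unadjusted p = 0.0165, adjusted p = 1, limma) and in B6 -0.05 (SE 0.34). The difference between these effects was -1.07 (SE 0.48, 95% interval -2.17 to 0.03, unadjusted p = 0.0557, adjusted p = 0.9998), which missed the threshold. Of the 15 probe sets, 0 passed in ICR, 0 in B6 and 0 in the test of the difference between strains, where 0.00409%, 0.00409% and 0% of all probe sets passed; 2, 1 and 0 of the 15 had an unadjusted p under 0.05, against 4.61%, 1.46% and 1.23% of all.

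The channel-forming claudin, occludin and the scaffold did not differ detectably by genotype. Cldn2 was at 11.09 and 11.29 against 10.76 and 11.69 in ICR, and at 11.27 and 10.60 against 11.34 and 11.05 in B6. Its difference over both strains was 0.15 (95% interval -0.39 to 0.69), and Sox17+/- and wild type samples overlapped in each strain. The leading probe set of Ocln gave -0.18 (95% interval -0.64 to 0.28). Tjp1 stayed between 10.15 and 10.64 in all 8 gallbladder samples, with a difference of -0.04 (95% interval -0.36 to 0.27). Cldn3, another barrier claudin, gave -0.03 (95% interval -0.34 to 0.27), and its other 3 probe sets gave -0.14 to 0.07. Cldn6, a claudin of embryonic epithelia, gave -0.16 with the widest interval of the members (-1.34 to 1.01).

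Markers of other cell types moved along with genotype. All 7 hepatocyte markers had a difference above 0 over both strains, with a median of 0.80, and 0 of the 7 passed the adjusted threshold in limma (5 had an unadjusted p under 0.05). The log2 of their summed signal was 14.54 to 14.93 in ICR wild type gallbladder and 15.50 to 15.76 in ICR Sox17+/- gallbladder. In B6 it was 15.31 to 15.72 in wild type and 15.63 to 15.70 in Sox17+/-. All 5 skeletal muscle markers also had a difference above 0, with a median of 1.34; their summed signal was 7.79 to 7.91 in ICR wild type, 8.13 to 8.84 in ICR Sox17+/-, 7.92 to 7.99 in B6 wild type and 8.72 to 11.56 in B6 Sox17+/- gallbladder. The 4 tested erythroid markers of 6 had a median difference of 0.81, with a summed signal of 9.25 to 10.20 in the wild type and 10.04 to 11.35 in the Sox17+/- gallbladders. The smooth muscle sum was lower in all 4 Sox17+/- gallbladders, 14.19 to 14.27, than in all 4 wild type gallbladders, 14.39 to 14.49; the median difference of its 5 markers was -0.25, 0 of them passed and 1, Myh11 (-0.62), had an unadjusted p under 0.05. The part of these cells in the Cldn8, Cldn7 and Cldn1 differences was not tested. The 10 epithelial markers had a median difference of -0.05. Krt8 differed most, by 1.26, with ICR wild type gallbladder replicate 1 at 8.20 and the other samples between 10.77 and 11.99. That sample was also the lowest for Lum (10.95), Pdgfra (7.55) and Apoa2 (7.55), and it is 1 of the 2 wild type gallbladder samples of ICR. With every sample centred on the epithelial markers the Cldn8 difference was 1.51 (adjusted p = 0.124, limma) and that of Cldn7 -0.51. Krt8 is 1 of the 10 markers used for centring, so its low value in ICR wild type gallbladder replicate 1 enters both differences. They are therefore not adjusted for epithelial content alone.

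Cystic duct, through which bile enters and leaves the gallbladder, was compared with gallbladder in ICR wild type embryos. Cldn1 was higher in cystic duct by the largest margin of the members and Cldn8 by the next largest; the other leading probe sets differed by -0.62 to 0.41. In limma 2 of the 15 probe sets passed, both higher in cystic duct, against 11.1% of all probe sets in either direction and 4.03% higher. At an unadjusted p under 0.05 there were the same 2, against 29.3% of all probe sets. The members' share is thus near the share called in either direction and below the share at an unadjusted p. It is above the share called higher, though with a count of only 2.

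Cldn1 was at 9.83 and 9.45 in cystic duct against 6.41 and 5.78 in gallbladder. The lower duct sample was thus above all 8 gallbladder samples of both strains and genotypes, whose highest was 7.43. Both duct samples lay above all 8 gallbladder samples, by any margin, for 9.99% of all probe sets. The difference of Cldn1 was 3.55 (SE 0.34, 95% interval 2.77 to 4.33, adjusted p = 0.00291, limma), or 11.7-fold. Its second probe set, 1450014_at, rested on 1 sample: it was at 6.48 in cystic duct replicate 1 and at 4.54 in replicate 2, against 4.59 and 4.63 in gallbladder, and gave 0.90 (adjusted p = 0.283, limma). Its mean over the 10 samples was 4.95 and its median over the 8 gallbladder samples 4.79. The limit for testing was a mean of 4.81, which it would not have reached without cystic duct replicate 1.

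Cldn8 was at 8.58 and 8.52 in cystic duct, close together and above the 7.08 and 6.62 of gallbladder, a separation that 19.1% of all probe sets had. The difference was 1.70 (SE 0.33, 95% interval 0.94 to 2.46, adjusted p = 0.0184, limma), or 3.25-fold. This comparison and the genotype comparison in ICR share the same wild type gallbladder samples, so their values are not independent. ICR Sox17+/- gallbladder against cystic duct takes neither mean from these samples, though they enter the normalization and the shared estimate of the spread. This comparison was added after the values were seen. In it Cldn8 differed by 0.10 (95% interval -0.66 to 0.86, adjusted p = 0.874), whereas Cldn1 was lower in Sox17+/- gallbladder by 2.53, a difference of -2.53 (SE 0.34, adjusted p = 0.0122, limma), where 4.4% of all probe sets passed. The Cldn8 interval still holds differences from -0.66 to 0.86, so equal levels are not shown. Cldn1 in ICR Sox17+/- gallbladder, at 7.25 and 6.97, stayed below its 9.83 and 9.45 in cystic duct.

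Both calls depended on the fit. With only the compared groups, which leaves the spread to 4 samples, 0 of 15 passed and so did 0 of all 24461 (adjusted p of 0.180 for Cldn1 and 0.201 for Cldn8), and with array weights 0 passed as well. Without ICR wild type gallbladder replicate 1 or replicate 2, Cldn8 no longer passed (adjusted p of 0.0548 and 0.0888) and Cldn1 did. As deposited, without quantile normalization, Cldn8 gave 1.38 (adjusted p = 0.0661) and Tjp1 passed as lower, at -0.77 (adjusted p = 0.0351).

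**Figure D2:**
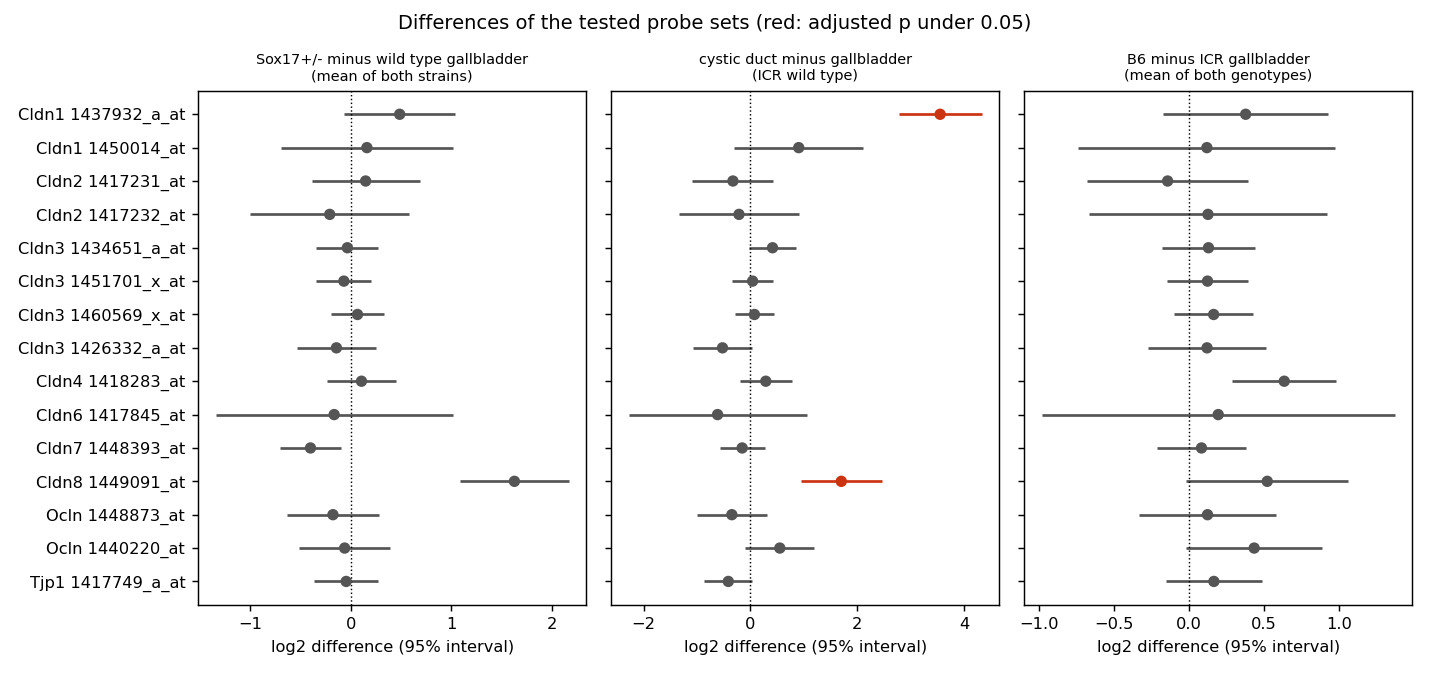
Log2 difference of the 15 tested probe sets of tight junction genes in Sox17+/- against wild type gallbladder over both strains, in cystic duct against gallbladder of ICR wild type, and in B6 against ICR gallbladder; points are limma estimates, bars are 95% intervals, red marks an adjusted p under 0.05 and each panel has its own horizontal scale. The interval of Cldn8 lies above 0 by genotype (1.09 to 2.16) and in cystic duct (0.94 to 2.46), and that of Cldn4 lies above 0 by strain (0.29 to 0.98).

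The 2 cystic duct samples differed widely for several members. Cldn6 was at 7.80 in replicate 1 and at 5.12 in replicate 2, against 7.39 and 6.76 in gallbladder, so the duct samples lay on either side of the gallbladder samples. Its difference was -0.62 (SE 0.72), and it became -1.96 without replicate 1, where it passed, and 0.73 without replicate 2. The leading probe set of Ocln was at 8.78 and 7.96 in duct against 8.77 and 8.66 in gallbladder, while its other probe set, 1440220_at, was at 7.83 and 8.27 against 7.51 and 7.49. These probe sets gave -0.35 and 0.55, of opposite sign, and neither passed. Without cystic duct replicate 1, 6 of the 15 passed: Cldn1, Cldn4 and Cldn8 higher, and 1 probe set each of Cldn3, Cldn6 and Ocln lower; 48.7% of all probe sets passed in that fit. Without replicate 2, 4 passed, against 25.3% of all: both tested Cldn1 probe sets and Cldn8 higher, and Tjp1 lower, at -0.65. Cldn1, by its leading probe set, and Cldn8 thus kept their direction with either duct sample left out.

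Cldn3 showed the same disagreement among probe sets. Its leading probe set was at 9.16 and 9.44 in duct against 9.07 and 8.71 in gallbladder, a difference of 0.41 (95% interval -0.02 to 0.85). Probe set 1426332_a_at was at 7.36 and 6.80 against 7.83 and 7.37, a difference of -0.52 (95% interval -1.08 to 0.04). The 2 cross-hybridizing probe sets of Cldn3 gave 0.04 and 0.07. No direction can be given for Cldn3 or Ocln in cystic duct from these probe sets. Cldn2 gave -0.33 (95% interval -1.09 to 0.43), Tjp1 -0.41 (95% interval -0.86 to 0.04), Cldn7 -0.16 (95% interval -0.58 to 0.27) and Cldn4 0.29 (95% interval -0.20 to 0.78).

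**Figure D3:**
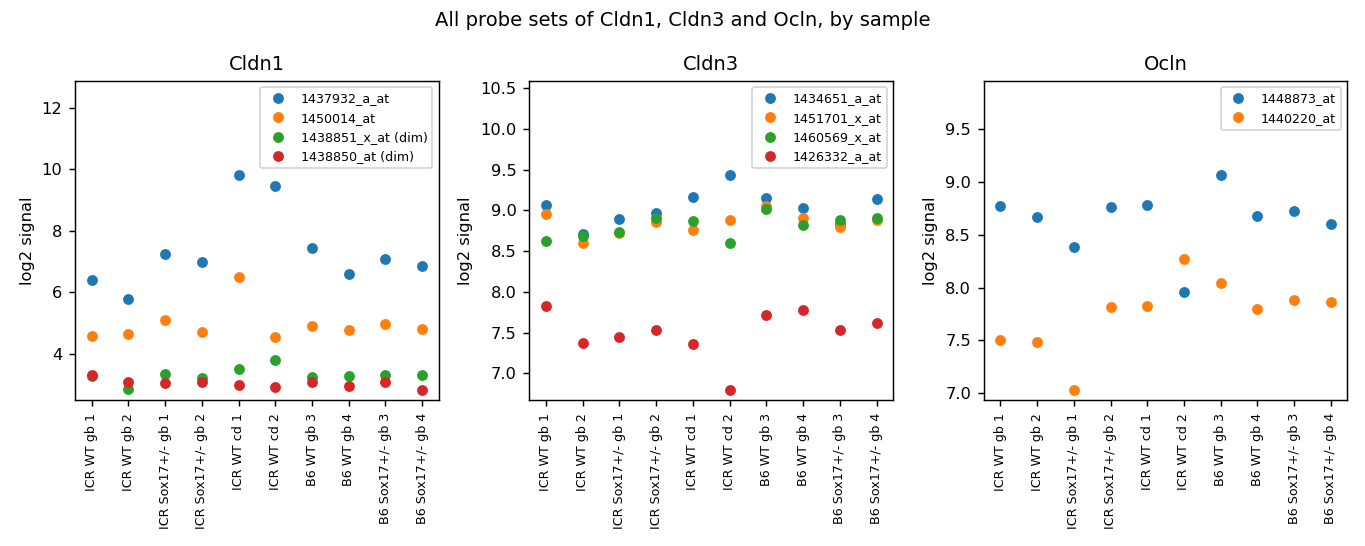
Log2 signal of every probe set of Cldn1, Cldn3 and Ocln in each sample, 1 colour per probe set; gb is gallbladder, cd is cystic duct, WT is wild type, and the 2 Cldn1 probe sets marked dim were not tested. The leading Cldn1 probe set is high in both duct samples and 1450014_at in duct 1 alone, at 6.48, and the Ocln probe sets change order in duct 2, at 7.96 and 8.27.

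Markers of several other cell types differed between cystic duct and gallbladder as well. Of the 7 hepatocyte markers 6 passed as higher in cystic duct, with a median difference of 3.43 over the 7. The log2 of their summed signal was 16.62 to 16.87 in cystic duct and 14.54 to 14.93 in ICR wild type gallbladder. The erythroid sum was 11.80 to 13.25 in cystic duct and 9.25 to 10.03 in gallbladder, and the smooth muscle sum 12.33 to 13.07 against 14.46 to 14.49, with 4 of its 5 markers lower by the test. Of 8 mesenchyme markers 3 passed as lower (Vim, Col1a1 and Col1a2; sum 15.66 to 16.13 in duct and 16.20 to 16.35 in gallbladder). Of 6 endothelium markers 1 passed as lower (Tek; 10.86 to 11.11 against 11.34 to 11.57), and of 4 mesothelium markers 1 (Msln; 9.96 to 10.07 against 10.30 to 10.61). The epithelial sum was 13.58 to 13.65 in duct and 13.45 to 13.65 in gallbladder; of its 10 markers Krt18 passed as higher and Krt19 as lower. Cldn1 was lowest in the group with the lowest hepatocyte sum and highest in the group with the highest. The part of hepatocyte RNA or of the other cells in the Cldn1 and Cldn8 differences was not tested.

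**Figure D4:**
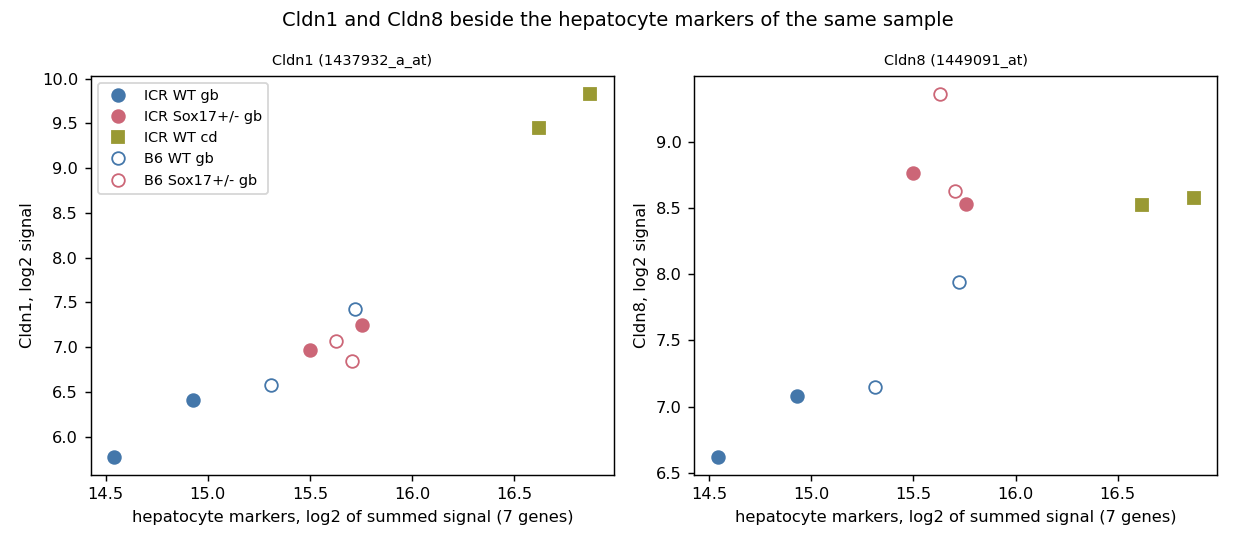
Log2 signal of Cldn1 (left) and Cldn8 (right) in each of the 10 samples against the log2 of the summed signal of 7 hepatocyte markers in the same sample; filled circles are ICR gallbladder, open circles B6 gallbladder, squares cystic duct, blue wild type and red Sox17+/-. Cldn1 is highest in the 2 duct samples with the highest marker sums (16.62 and 16.87), and Cldn8 is at 8.58 and 8.52 in these samples.

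B6 gallbladder was compared with ICR gallbladder over both genotypes. Cldn4 showed the clearest difference: it was between 8.04 and 8.15 in the 4 B6 samples and between 7.29 and 7.53 in the 4 ICR gallbladder samples, with no overlap, as for 12.6% of all probe sets. The difference was 0.63 (SE 0.15, 95% interval 0.29 to 0.98), or 1.55-fold, with an adjusted p of 0.0506 in limma. So 0 of the 15 probe sets passed, against 5.68% of all probe sets, and 1 had an unadjusted p under 0.05, against 17.3%. Of the 15 differences 14 were above 0 with a median of 0.13. Over all 24461 probe sets 14169 were above 0, with a median of 0.05. Several of the 15 read the same gene, and of the 9 leading probe sets 8 were above 0.

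Cldn4 lay at the threshold and crossed it with several settings. The adjusted p was 0.00371 when the fit held only the gallbladder groups, where 15.7% of all probe sets passed, 0.0415 in wild type gallbladder alone (difference 0.67), and 0.00364 or 0.00374 without either cystic duct sample. With every sample centred on the epithelial markers the difference was 0.35 (adjusted p = 0.403, limma), and the median over all probe sets shifted to -0.24. The low Krt8 value of ICR wild type gallbladder replicate 1 enters this centring too. The epithelial sum was 13.86 to 14.10 in B6 and 13.45 to 14.00 in ICR gallbladder, and 9 of the 10 epithelial markers had a difference above 0, with a median of 0.28. None of them passed (0 in limma), and of the 4 with an unadjusted p under 0.05, Spint1 was lower in B6 (-0.29). The leukocyte sum was 12.47 to 12.88 in B6 and 11.82 to 11.90 in ICR gallbladder, without overlap, and 1 of its 4 markers passed as higher (Lyz2, 1.37). All 7 hepatocyte markers had a difference above 0 with a median of 0.55, and 1 passed. The part of epithelial content and of other cells in the Cldn4 difference was not tested. Cldn8 gave 0.52 (95% interval -0.02 to 1.06) and the second Ocln probe set 0.43 (95% interval -0.02 to 0.89), and neither passed.

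Other tight junction genes were read from a list of 51 entries, of which 46 had a leading probe set and 38 passed the filter; the other 8 were too dim to be tested. By genotype over both strains 0 of the 38 passed in limma, also 0 without adjustment at a p under 0.05; the median difference was 0.01. The smallest p values belonged to the polarity adaptor Lin7c (-0.32, SE 0.15) and to Cldn13 (0.96, SE 0.49). In ICR 0 passed (0 at an unadjusted p under 0.05), with Ybx3, a regulator bound by ZO-1, at 1.27 (SE 0.57) and the adhesion molecule Jam2 at 0.38 (SE 0.20) having the smallest p. Ybx3 was at 9.22 in ICR wild type gallbladder replicate 1 and between 11.43 and 12.11 in the other 9 samples, so its difference rests on that sample. In B6 0 passed and 1 had an unadjusted p under 0.05, the claudin gene Cldn23 at -1.04 (SE 0.40), followed by Cldnd1 at 0.70 (SE 0.38). Cldn23 was at 6.50 and 6.19 in B6 wild type and at 5.23 and 5.37 in B6 Sox17+/- gallbladder. The genotype effect differed between strains for 0 of the 38 (0 at an unadjusted p under 0.05); Cldn23 gave -1.07 (SE 0.57) and the junction scaffold Amotl1 0.99 (SE 0.64).

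In cystic duct 2 of the 38 passed as higher and 2 as lower, where 11.1% of all probe sets passed, so the share of this list is not above the background. The median was -0.32, against -0.07 over all probe sets. Cldn13, a claudin known from mouse blood-forming tissue among others, was at 11.54 and 9.92 in cystic duct and at 7.82 and 6.19 in gallbladder. Its difference was 3.73 (SE 0.69, adjusted p = 0.0155, limma), and the erythroid markers given above moved the same way. Cldn14, a barrier claudin of inner ear and kidney, rose from 5.01 and 4.91 to 5.94 and 6.16, by 1.09 (SE 0.19, adjusted p = 0.0132). The polarity kinase gene Prkci was lower by 0.58, a difference of -0.58 (SE 0.14, adjusted p = 0.0384), and the scaffold Amotl2 had -0.66 (SE 0.16, adjusted p = 0.0393).

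By strain 3 of the 38 passed, all lower in B6, where 5.68% of all probe sets passed in either direction. They were the angulin Ildr2 (-1.81, SE 0.23, adjusted p = 0.00458, limma), Cldnd1 (-1.63, SE 0.27, adjusted p = 0.0117) and Amotl1 (-1.51, SE 0.32, adjusted p = 0.0315). Ildr2 was at 6.47 to 7.17 in the 4 B6 samples and at 8.41 to 8.86 in the 4 ICR gallbladder samples. Cldnd1 was at 7.48 and 7.28 in B6 wild type and at 8.68 and 7.49 in B6 Sox17+/-, against 8.99 to 9.69 in ICR gallbladder. Amotl1 was at 9.90 in B6 Sox17+/- replicate 3 and at 8.23 to 8.61 in the other 3 B6 samples, against 10.15 to 10.47 in ICR gallbladder. No claudin member showed a strain difference of this size.

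For the 3 members that varied most over the samples, the genes with the most similar profile were found by Pearson r over the 10 samples among 13842 genes. These r values describe samples that share groups and arrays and carry no test. Nearest to Cldn1 were Slc27a5 (r = 0.991), which activates bile acids and fatty acids in liver, F2 (r = 0.990), the gene of prothrombin, and Ugt2b5 (r = 0.989), a liver glucuronosyltransferase. Over the 8 gallbladder samples alone their r with Cldn1 was 0.933, 0.928 and 0.920. The genes were picked by r over all 10 samples, which include these 8, so this r is no separate support. F2, for example, was at 11.53 and 10.89 in cystic duct and at 7.95 and 6.90 in ICR wild type gallbladder.

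Nearest to Cldn8 were Wfdc18 (r = 0.923), Fabp7 (r = 0.921), a fatty acid binding protein, and Cdh6 (r = 0.913), a cadherin. Over the 8 gallbladder samples their r was 0.947, 0.983 and 0.939. Wfdc18 was at 5.90 and 5.36 in ICR wild type gallbladder, 7.85 and 8.22 in ICR Sox17+/- gallbladder, 6.22 and 5.99 in B6 wild type and 7.97 and 7.87 in B6 Sox17+/-. Like Cldn8 it was higher in all 4 Sox17+/- samples than in all 4 wild type gallbladder samples, as were 1.52% of all probe sets. Wfdc18 was picked for its likeness to Cldn8, so this separation is no separate result. In cystic duct Wfdc18 was at 6.86 and 7.70, below all 4 Sox17+/- samples. Nearest to Cldn6 were Eefsec (r = 0.993), Prcc (r = 0.992) and Yars (r = 0.988), genes of selenoprotein synthesis, splicing and tyrosine charging of tRNA, and all of them were lowest in cystic duct replicate 2. Without that sample their r with Cldn6 was 0.965, 0.976 and 0.946.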

How the data were processed

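The authors deposited log2 signals, 1 value per probe set and sample; how they corrected the background and normalized is not given in the sources used here. Stage and genotype stand under each other's tag in the sample records and were read by their content. Of 45101 probe sets, 64 controls, 932 with several genes and 9160 with none in the platform table were left out, and Entrez identifiers of 34741 of the 34945 others were found in RefSeq (GRCm38.p6). Sample medians and interquartile ranges (2.75 to 3.84) differed by over 0.2, so samples were quantile normalized. Probe sets under the 30th percentile of mean signal (4.81) were left out, leaving 24461. A model with 1 mean per group over all 10 samples was fitted with a mean-variance trend by limma 3.58.1 under R 4.3.3 (5 residual degrees of freedom, 8.01 with the prior), and p values were adjusted by Benjamini-Hochberg over all 24461, threshold 0.05. Arrays have no read depth; precision is set by 2 samples a group. The leading probe set of a gene is that with the highest mean, and a name ending in _x_at counted only in the absence of others.

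Named genes were the 9 members, listed tight junction genes that passed or had the 2 smallest p values of a comparison, and the 3 genes with the highest r to each of the 3 most variable members. The members and lists were chosen with earlier results of these data known. Other cell type lists (mesenchyme, endothelium, mesothelium, pancreas, leukocyte and neural markers) had median genotype differences of -0.02, 0.14, 0.18, 0.31, 0.04 and 0.14, with 0 genes passing by genotype in limma. Deviations from the group means of same-numbered wild type and Sox17+/- gallbladders correlated with r of 0.39 in ICR and 0.31 in B6. These r come from the data, as no label says what a number shares, and the 2 pairs of a strain mirror each other. The main fit held no term for the replicate number, so its genotype intervals and p values treat samples as unpaired. Only an alternative fit took the numbers to pair samples. With cystic duct r was 0.07, and those samples were not taken as paired. Alternatives changed normalization, filter, probe set choice, variance prior, weights, samples in the fit, the replicate number as a block, and left out each sample. The steps were tested on simulated data. Figures used matplotlib 3.10.9 and pandas 2.3.3 under Python 3.11.15.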

Additional observations from a re-analysis of the deposited data

How the results depend on the processing

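The counts of called tight junction probe sets were 0 in ICR, in B6 and for the difference between strains under every alternative run. Over both strains 1 (Cldn8) passed with array weights, and leaving out samples gave 0 to 1. Cystic duct had 2 called; centring on medians gave 1 (Cldn1), averaging the probe sets of each gene 1 (Cldn8, since the mean of Cldn1 failed the filter and has no value), array weights 0, the compared groups alone 0, and leaving out samples 1 to 6. By strain 1 (Cldn4) passed with median centring, the 50th percentile filter, the mean of probe sets, no trend, array weights, gallbladder groups only or wild type alone, and leaving out samples gave 0 to 1. Cldn1 and Cldn8, the 2 called in cystic duct, kept their sign in every alternative that gave a value, but Cldn6 (-1.96 to 0.73), Ocln (-0.76 to 0.10) and Cldn4 (-0.02 to 0.57), which each passed there without duct replicate 1 only, did not. Over all probe sets, 2 passed by genotype, but 33 with the compared groups only, 115 with array weights and 381 without ICR wild type gallbladder replicate 2; in cystic duct 2724 passed, but 0 with the compared groups only or with array weights, 774 without ICR wild type gallbladder replicate 1 and 11922 without cystic duct replicate 1. Values as deposited shifted the median of all probe sets in cystic duct to -0.30, and median centring to -0.19. The cause was not tested.

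With the replicate number as a block, 0 of the 15 passed by genotype, jointly or in either strain (Cldn8 jointly 1.63, adjusted p = 0.19, limma), and 2 in cystic duct, so the pairing changed no call of a member; over all probe sets 1 passed by genotype in place of 2. Strain has no blocked test, since no number occurs in both strains. A group reduced to 1 sample was taken to have the spread of the other groups. With 2 samples a group, genotype differences of the size seen for Cldn7 and Cldn1 cannot be told from none after adjustment, and dim probe sets of Cldn1 carry no information on it.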
